A study of Mus musculus with 6 samples.

Results

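The genes described here encode plasma apolipoproteins, the proteins that coat lipid particles in blood, together with a pair of proteins that remodel those particles. They are the 4 genes of the Apoe-Apoc cluster (Apoe, Apoc1, Apoc4 and Apoc2), 4 apolipoprotein genes that lie elsewhere (Apoa2, Apoh, Apom and Apof), and Lcat and Pltp. The genes were chosen by name, and each was read from the array feature annotated with its symbol and no other. Of the 10 genes, 9 had such a feature, among 18820 genes measured in all, and each of the 9 had exactly 1. The feature of Pltp, the phospholipid transfer protein, is annotated with Ctsa as well, so that no value can be given for Pltp.

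Expression was measured in primary hepatocytes, cells isolated by digestion of perfused liver, from male wildtype C57BL/6J mice aged 8 to 10 weeks. Dishes of 60 mm received Ad-nuclear CREBH, an adenovirus that encodes the nuclear form of the transcription factor CREBH (3 dishes), or Ad-GFP, the control adenovirus that encodes green fluorescent protein (3 dishes). Both viruses were added at a multiplicity of infection of 100, and RNA was taken 24 h later, so that all cells compared here had been cultured and exposed to an adenovirus. CREBH is normally held in the membrane of the endoplasmic reticulum and acts after cleavage, a step that the viral product does not need. Each RNA was hybridized to 1 Affymetrix Mouse Gene 1.1 ST array. Values are log2 expression after RMA, which removes background, brings the arrays to a common distribution and combines the probes of each transcript, and 1 unit is a doubling. Whether each dish had its own donor mouse is stated in neither the labels nor the methods. The p-values therefore rest on the spread between dishes, which may be technical.

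Creb3l3, the gene of CREBH, was at 9.97, 10.46 and 10.59 in the Ad-nuclear CREBH dishes and at 8.49, 8.02 and 8.21 in the Ad-GFP dishes. The median of all genes was 5.05 to 5.12 on the Ad-nuclear CREBH arrays and 5.12 to 5.30 on the Ad-GFP arrays, and the highest value of any gene was 13.46 to 13.56 over the 6 arrays. The array of replicate 1 stood apart in both groups. Across genes, its correlation with the rest of its group averaged 0.991 for Ad-nuclear CREBH, where the others had 0.994, and 0.986 for Ad-GFP, where the others had 0.991. The labelled cell type could be read from its markers. Alb, the albumin gene, was at 13.27 in Ad-nuclear CREBH and 13.28 in Ad-GFP dishes, and Hpx, the hemopexin gene, at 12.99 in Ad-nuclear CREBH and 13.31 in Ad-GFP dishes. Of 11 measured hepatocyte markers 6 fell, with the fibrinogen genes Fgb at a log2 fold change of -2.29 and Fga at -1.72. For Fga this was the brighter of its 2 features. All 11 lay above the median level of all genes, and 58.5% of the genes above that level rose or fell. Beside these counts and those of the other markers, the share was 37.4% over all genes and 16.4% below the median level. Of the markers of other liver cells, 1 of 10 passed for endothelium (Oit3, at 0.56), 1 of 11 for stellate cells (Reln, at -1.90) and 2 of 5 for cholangiocytes (Epcam, at 1.74, and Krt19, at -1.06). The Oit3 call was kept in 1 of 6 fits with 1 array left out, and 3 stellate markers rose without Ad-nuclear CREBH replicate 1, among them Col1a1 and Col1a2, at 1.63 and 1.02 over all arrays (adjusted p = 0.0619 and 0.0635). Of 15 Kupffer cell and macrophage markers 10 lay below the median of all genes, among them the Kupffer cell markers Clec4f, Vsig4 and Timd4, at 3.08 to 3.93 in group means, while 1 rose and 4 fell. The part of these shifts in the results that follow was not tested. Differences are given as Ad-nuclear CREBH minus Ad-GFP from limma, and a gene is said to have risen or fallen where its p, adjusted by Benjamini-Hochberg over the 18820 genes, was under 0.05.

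Apolipoproteins give lipoproteins their identity. ApoE is the ligand through which liver receptors take up remnant particles, ApoC-II is the cofactor that lipoprotein lipase needs to hydrolyze triglycerides, and ApoC-I modulates receptor uptake and plasma enzymes. ApoA-II and ApoM are carried mainly on HDL, where LCAT esterifies cholesterol. The liver makes most of these proteins. In humans, the genes of the Apoe-Apoc cluster share hepatic control regions that lie within the cluster.

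The measured genes did not move as a block. Apoc2 rose, Apom and Lcat fell, Apoc1 rose by a small amount and Apof fell by a small amount, whereas Apoe, Apoc4, Apoa2 and Apoh did not pass the test. In counts, 2 of the 9 rose and 3 fell, against 19.2% risen and 18.2% fallen among all genes (37.4% in either direction). The share of called genes depends on level. All 9 genes lay above the median level, and 58.5% of the genes above it were called. The median log2 fold change was 0.00 over the 9 genes and 0.04 over all genes. The arrays of both groups did not overlap for 5 of the 9, against 49.4% of all genes. By the criteria of the study's methods, which add a minimum fold and a minimum level, 1 of the 9 changed, namely Apoc2, against 8.09% of all genes. The calls of Apoc2, Apom and Lcat were kept in each of 6 fits that left out 1 array, while that of Apoc1 was kept in 2 and that of Apof in 1.

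**Figure D1:**
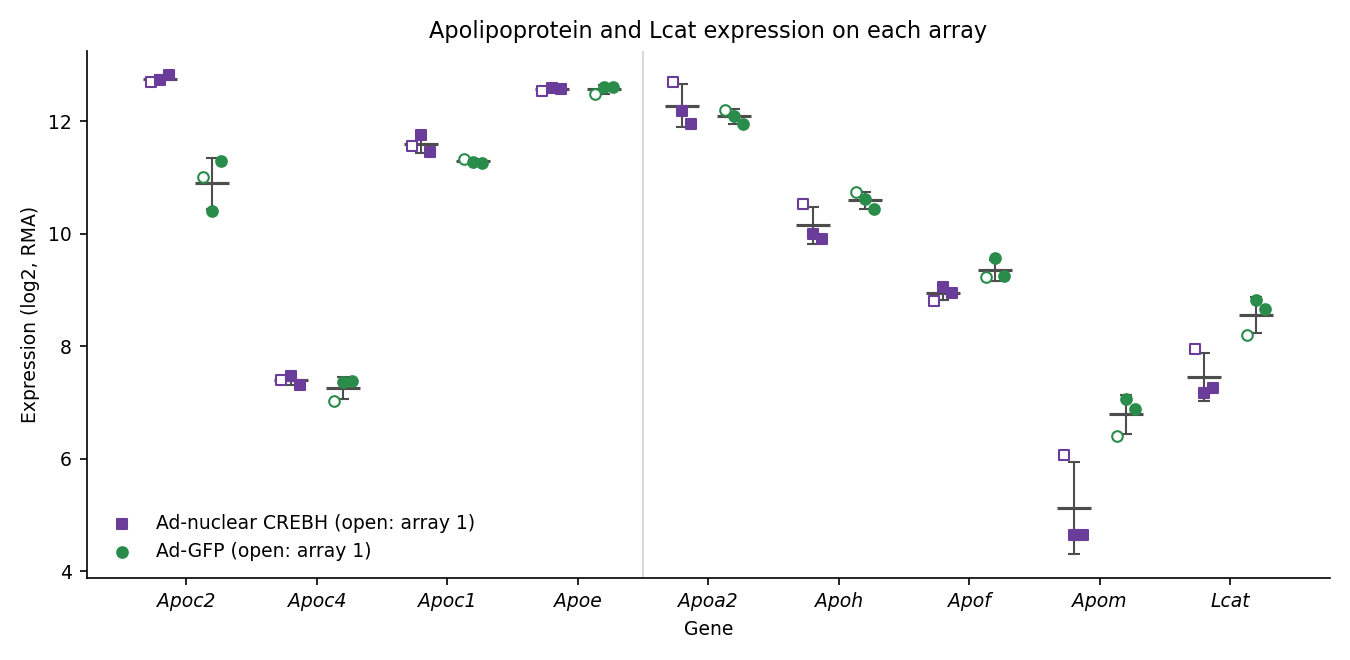
Expression (log2, RMA; vertical axis) of the 9 genes with a feature of their own on each array, with Ad-nuclear CREBH dishes as purple squares and Ad-GFP dishes as green circles; open symbols are the arrays of replicate 1, and bars are the mean ± SD of 3 dishes. Genes left of the line belong to the Apoe-Apoc cluster. Apoc2 lies at 12.70 to 12.83 in Ad-nuclear CREBH dishes and at 10.41 to 11.29 in Ad-GFP dishes, while the Apoe values of both groups lie between 12.48 and 12.61.

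Apoc2 had the largest change of the 9 genes. Its expression was 12.70, 12.74 and 12.83 in the Ad-nuclear CREBH dishes and 11.01, 10.41 and 11.29 in the Ad-GFP dishes. The groups did not overlap, and the lowest Ad-nuclear CREBH dish was more than 1 unit above the highest Ad-GFP dish. Apoc2 rose 3.61-fold (log2 fold change 1.85, SE 0.20, 95% interval 1.40 to 2.31, adjusted p = 0.000189), which ranked 659 among all genes by size of the rise. The dishes with Ad-nuclear CREBH were also closer together, at an SD of 0.069 against 0.45 in Ad-GFP dishes (n = 3 each), a difference in spread that was not tested. In the Ad-nuclear CREBH dishes Apoc2 lay near the highest value of any gene on those arrays, 13.52 to 13.54. Both its spread there and the size of its rise can therefore be understated. With 1 array left out, the log2 fold change was lowest, at 1.60, when this was Ad-GFP replicate 2, and highest, at 2.05, when it was Ad-GFP replicate 3, and the adjusted p was at most 0.00173.

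The next genes of the cluster showed little of this. Apoc4, which encodes an apolipoprotein of low abundance in plasma and lies directly upstream of Apoc2 on the same strand, was at 7.41, 7.48 and 7.32 in Ad-nuclear CREBH dishes and at 7.03, 7.37 and 7.39 in Ad-GFP dishes. These groups overlapped, with a log2 fold change of 0.14 (SE 0.15, 95% interval -0.21 to 0.49, adjusted p = 0.528). RefSeq also lists Gm44805, a locus that spans Apoc4 and Apoc2 and produces a joint transcript. Whether the probes of either feature also bind that transcript was not tested. Apoc1 was at 11.57, 11.75 and 11.46 in Ad-nuclear CREBH dishes and at 11.33, 11.27 and 11.26 in Ad-GFP dishes. All 3 Ad-nuclear CREBH dishes were higher, by a mean of 1.23-fold (log2 fold change 0.30, SE 0.09, adjusted p = 0.031). This call was lost without Ad-nuclear CREBH replicate 1 (adjusted p = 0.0525) or 2 (0.122), and likewise with Ad-GFP replicate 2 (0.0948) or 3 (0.0963) left out. It was lost as well after quantile normalization (0.134) and cyclic loess (0.443).

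Apoe was the most even of the 9 genes. It stood at 12.54, 12.60 and 12.57 in Ad-nuclear CREBH dishes and at 12.48, 12.61 and 12.61 in Ad-GFP dishes, and the groups overlapped. Apoe thus lay near the highest value of any gene, 13.46 to 13.56 over the 6 arrays, so that a change can be understated. Its log2 fold change was 0.00 (SE 0.06), and the 95% interval of -0.15 to 0.15 is the narrowest among these genes (adjusted p = 0.984). The zero depends on the scaling, since it was 0.14 (adjusted p = 0.142) after subtraction of each array's median and -0.26 (adjusted p = 0.0313) under cyclic loess. Macrophages also make ApoE, ApoC-I and ApoC-II. While 4 macrophage markers fell over all 6 arrays, 1 to 3 did when any 1 array was left out. Over the 15 markers the summed linear level was 1390 to 2864 in Ad-nuclear CREBH dishes and 3694 to 4607 in Ad-GFP dishes. The bulk of this sum came from Cd68, at 10.35 in Ad-nuclear CREBH and 11.49 in Ad-GFP dishes, and Cd14, at 6.76 in Ad-nuclear CREBH and 9.84 in Ad-GFP dishes. In the other direction, Csf1r rose by 0.61 (adjusted p = 0.0254, kept in 2 of 6 fits with 1 array left out). Of the 15 markers, 10 did not pass, among them Clec4f at 0.26 and Adgre1 at 0.15. Fewer cells of a type and less RNA per cell cannot be told apart in bulk RNA. Which cells the Cd68 and Cd14 signal came from was not tested. The part of macrophage RNA in the values of Apoe, Apoc1 and Apoc2 was not tested either.

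The fold change of Apoc2 exceeded that of each other gene of the cluster. On the log2 scale the difference was 1.85 (SE 0.28) against Apoe, 1.71 (SE 0.31) against Apoc4 and 1.55 (SE 0.28) against Apoc1, and for each pair the within-array differences of the 2 groups did not overlap. Between Apoc1 and Apoe the difference was 0.30 (SE 0.10). Apoc1 and Apoc4 differed by 0.16 (SE 0.15) and Apoc4 and Apoe by 0.14 (SE 0.08), and for both pairs the groups overlapped. Under cyclic loess these differences were -0.14 and 0.50, so that the order of Apoc1 and Apoc4 depends on the scaling. Apoe in both groups and Apoc2 in Ad-nuclear CREBH dishes lay near the top of the arrays. The part of this in the differences between genes was not tested. An exact two-sided permutation test of 3 against 3 dishes cannot give a p under 0.1. The exact test gave p = 0.1 for the first 4 pairs, which is 0.15 after Benjamini-Hochberg adjustment over the 6 pairs, p = 0.4 for Apoc1 with Apoc4 and p = 0.3 for Apoc4 with Apoe.

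The stretch in front of Apoc2 is shown because Apoc2 changed while Apoc4, which lies 142 bases away, did not pass the test. The first line below is the whole stretch between the end of Apoc4 and the start of Apoc2 (GRCm38.p6, chr7:19677942-19678083, minus strand), and the next is that of 250 bases before the start of Apoc4 (GRCm38.p6, chr7:19681461-19681710, minus strand), both from RefSeq and 5′ to 3′. Capitals mark matches to the motifs searched.
Apoc2: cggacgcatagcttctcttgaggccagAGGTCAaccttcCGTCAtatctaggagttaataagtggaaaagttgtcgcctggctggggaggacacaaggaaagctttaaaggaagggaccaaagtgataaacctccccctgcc
Apoc4: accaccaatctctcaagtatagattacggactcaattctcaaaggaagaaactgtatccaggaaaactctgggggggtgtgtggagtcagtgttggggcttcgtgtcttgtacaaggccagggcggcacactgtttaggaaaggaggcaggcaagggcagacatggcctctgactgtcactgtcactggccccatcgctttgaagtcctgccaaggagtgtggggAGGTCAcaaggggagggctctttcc

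Both strands of the 250 bases before each start were searched for 4 motifs. These were TGACG, the core of the cAMP response element that factors of the CREB family read, the whole element TGACGTCA, CCACG, a part of the endoplasmic reticulum stress element, and AGGTCA, the half-site of many nuclear receptors. The whole element contains this core, so that those matches overlap. Among 32851 start windows of the mouse genome, 17.8% held TGACG, 1.55% TGACGTCA, 28.3% CCACG and 14.0% AGGTCA. Apoc2 held TGACG, as its reverse complement CGTCA, with its first base 103 bases before the start, AGGTCA at 115 bases and CCACG at 201 bases, where the window runs through the end of Apoc4. Apoc4 held only AGGTCA, at 25 bases. Of the 8 listed genes with a window (Apoc1 and Apof had none), TGACG was also found in 1 of the 2 windows of Apoa2 and AGGTCA in the other, and AGGTCA in that of Apoh. The 3 windows of Apoe and those of Apom, Lcat and Pltp held no match, and TGACGTCA was found in none. These matches describe the sequence and were not tested for binding.

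Outside the cluster, the gene with the largest fall was Apom, which encodes the lipocalin that carries sphingosine 1-phosphate on HDL. Its expression was 6.07, 4.65 and 4.65 in Ad-nuclear CREBH dishes and 6.40, 7.07 and 6.89 in Ad-GFP dishes. The groups did not overlap, but Ad-nuclear CREBH replicate 1 lay closer to the Ad-GFP dishes than to its own group. Apom was 3.16-fold lower (log2 fold change -1.66, SE 0.39, 95% interval -2.55 to -0.77, adjusted p = 0.0102). In Ad-nuclear CREBH replicates 2 and 3 it lay below the median of all genes, so that its fall can be understated. The log2 fold change was -2.13 without Ad-nuclear CREBH replicate 1 and -2.33 without both arrays of replicate 1, and the smallest fall with 1 array left out was -1.42, without Ad-nuclear CREBH replicate 2 (adjusted p = 0.0439).

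Lcat, the enzyme that esterifies HDL cholesterol, followed the same order of arrays. It was at 7.95, 7.17 and 7.26 in Ad-nuclear CREBH dishes and at 8.20, 8.83 and 8.66 in Ad-GFP dishes, again without overlap and again with replicate 1 of each group nearest to the other group. Lcat was 2.14-fold lower (log2 fold change -1.10, SE 0.25, 95% interval -1.67 to -0.53, adjusted p = 0.00858). Without both arrays of replicate 1 its log2 fold change was -1.53. Ad-nuclear CREBH replicate 1 was also the dish with the lowest Creb3l3 value of its group, at 9.97. Over all genes that fell, it was the Ad-nuclear CREBH array nearest to the Ad-GFP mean for 38.2%, close to the 33.6% of replicate 2 and the 28.2% of replicate 3. For these genes, Ad-GFP replicate 1 was the Ad-GFP array nearest to the Ad-nuclear CREBH mean for 68.6%. Over all genes that rose, the shares were 57.5% for Ad-nuclear CREBH replicate 1 and 39.2% for Ad-GFP replicate 1. The part of these arrays in the size of the falls was not tested beyond leaving them out.

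Apof, the lipid transfer inhibitor protein in humans, was at 8.81, 9.05 and 8.95 in Ad-nuclear CREBH dishes and at 9.24, 9.57 and 9.25 in Ad-GFP dishes. All Ad-nuclear CREBH dishes were lower, by 1.33-fold in the mean (log2 fold change -0.41, SE 0.13, adjusted p = 0.0421). The call was kept only when Ad-GFP replicate 1 was the array left out, with an adjusted p of 0.0702 to 0.155 in the other 5 fits, and it was lost with each array centred on its median (log2 fold change -0.27, adjusted p = 0.123). Apoh, beta-2-glycoprotein I, a phospholipid-binding plasma protein, was at 10.53, 10.00 and 9.90 in Ad-nuclear CREBH dishes and at 10.74, 10.62 and 10.44 in Ad-GFP dishes. Replicate 1 of Ad-nuclear CREBH lay within the Ad-GFP range. Apoh did not pass (log2 fold change -0.46, SE 0.17, adjusted p = 0.0693), but did without that array (-0.65, adjusted p = 0.00517). Apoa2, which encodes the second most abundant protein of HDL, was at 12.70, 12.19 and 11.96 in Ad-nuclear CREBH dishes and at 12.21, 12.09 and 11.95 in Ad-GFP dishes. These overlapped, with a log2 fold change of 0.20 (SE 0.17, 95% interval -0.20 to 0.60, adjusted p = 0.433) that was -0.01 without Ad-nuclear CREBH replicate 1.

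**Figure D2:**
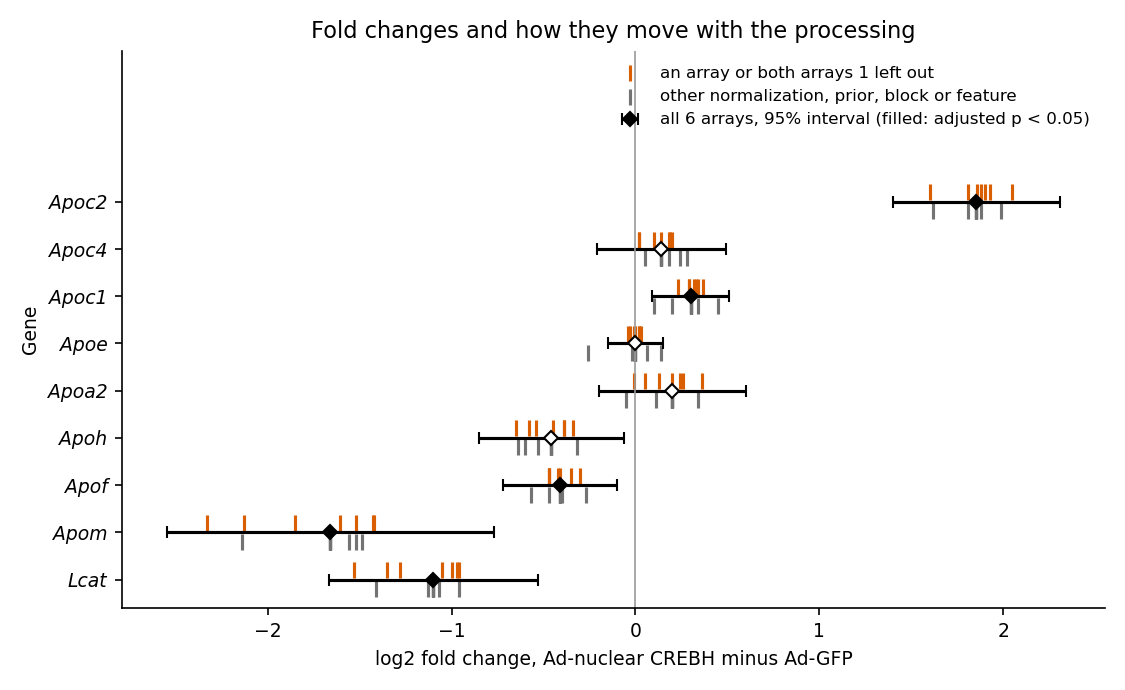
Log2 fold change of each gene, Ad-nuclear CREBH minus Ad-GFP (horizontal axis), from limma on all 6 arrays with its 95% interval (diamonds, filled at an adjusted p under 0.05), with the values after leaving out arrays (orange ticks) and under other normalizations, variance priors, the block or the feature rule (gray ticks). Apoc2 stays between 1.60 and 2.05, Apom between -2.33 and -1.42 and Lcat between -1.53 and -0.96, whereas the ticks of Apoe reach from -0.26 to 0.14.

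Listed genes around the cluster on chromosome 7 were set beside it, since neighbors share their chromosomal surroundings. From the first to the last listed gene, RefSeq holds 24 protein-coding genes, and 5 of these were not on the list. Of 14 measured neighbors 1 rose and 6 fell, with a median log2 fold change of -0.59. Among all genes 37.4% were called in either direction and 18.2% fell. The level of 4 of the 14 was below the median of all genes, and 58.5% of the genes above that median were called. Nkpd1, a gene of the NTPase family named for its KAP domain, rose by 2.41 (SE 0.19, adjusted p = 4.59e-05) and was the one that rose. It lay at 3.77 in Ad-GFP dishes, below the median of all genes, so that the size of its rise can be understated, and 6 other listed genes lie between it and Apoc2. Clptm1, which encodes a transmembrane protein and is the listed gene next to Apoc2, had a log2 fold change of -0.08 (adjusted p = 0.636). On the other side, Tomm40, which encodes the pore of the mitochondrial protein import machinery, is the gene next to Apoe. It was at 7.59, 7.89 and 7.93 in Ad-nuclear CREBH dishes and at 8.96, 9.06 and 9.12 in Ad-GFP dishes, a log2 fold change of -1.24 (95% interval -1.56 to -0.93, adjusted p = 0.000219), and this interval does not overlap that of Apoe. These values of Tomm40 are those of the brightest of its 3 features. Further out, the adhesion molecule gene Bcam fell by 2.09 (adjusted p = 0.00017), to a mean of 4.06 in Ad-nuclear CREBH dishes that is also below the median, and the ubiquitin ligase gene Cblc by 1.30 (adjusted p = 0.0154), whereas Nectin2 was at -0.94 (adjusted p = 0.0533) and Bcl3 at -1.14 (adjusted p = 0.0927). The falls of Cblc and Relb were kept in 2 of the 6 fits with 1 array left out, and 3 neighbors fell without Ad-GFP replicate 2 or without Ad-nuclear CREBH replicate 3.

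**Figure D3:**
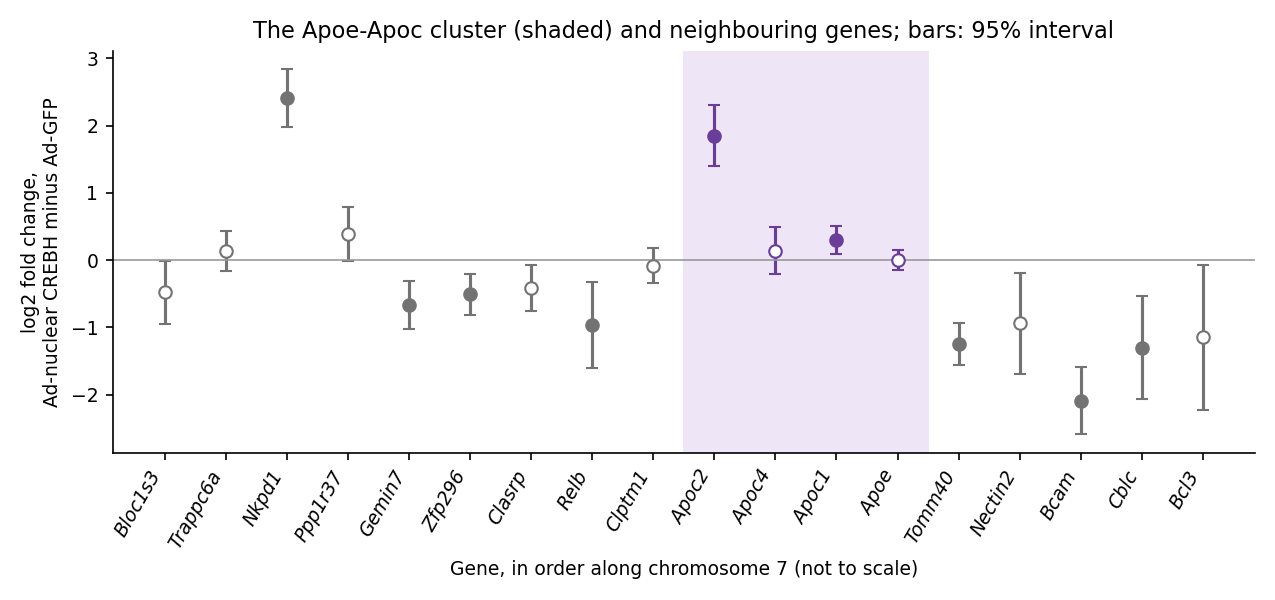
Log2 fold change, Ad-nuclear CREBH minus Ad-GFP (vertical axis), with its 95% interval, of the Apoe-Apoc cluster (purple, shaded) and measured neighbors (gray) in their order along chromosome 7, not to scale; filled points passed at an adjusted p under 0.05. Apoc2 stands at 1.85 with Clptm1 at -0.08 and Apoc4 at 0.14 on its sides, and Apoe at 0.00 lies beside Tomm40 at -1.24.

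The list of other apolipoprotein genes also holds Apobr, the gene of an apolipoprotein B receptor, and Apool, described below. Of its 15 measured genes 5 rose and 1 fell, with a median log2 fold change of 0.25, and 4 rose and 2 fell under cyclic loess. Beside the counts of this list and of those that follow stand the shares of called genes given above, 37.4% of all genes and 58.5% of those above the median level. Of the 15 genes of this list, 7 lay below that level, where 16.4% of genes were called. All 4 genes of the Apoa1-Apoc3-Apoa4-Apoa5 cluster rose, with log2 fold changes of 0.74 for Apoa1 (adjusted p = 5.63e-05), 0.41 for Apoc3 (adjusted p = 0.00116, but 0.104 under cyclic loess), 0.55 for Apoa4 (the brighter of its 2 features, adjusted p = 0.00139, at 13.50 in Ad-nuclear CREBH dishes, close to the top of the arrays) and 0.88 for Apoa5 (adjusted p = 0.0327, kept in 2 of 6 fits with 1 array left out). Apon, a plasma apolipoprotein gene of rodents, rose by 1.07 (adjusted p = 0.000372). Apob, the structural protein of VLDL, was at 11.71 in Ad-nuclear CREBH and 11.68 in Ad-GFP dishes (adjusted p = 0.874), and Clu, also called ApoJ, at 13.00 in Ad-nuclear CREBH and 13.02 in Ad-GFP dishes (adjusted p = 0.824). The gene of this list that fell was Apool, a protein of the mitochondrial inner membrane despite its name, by 0.80 (adjusted p = 0.00103).

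The list of lipoprotein receptors also holds chaperones and a regulator of receptors. Of its 14 measured genes 4 rose and 4 fell, with a median log2 fold change of 0.09, and 11 of the 14 lay above the median level. Lsr, the lipolysis-stimulated receptor, rose by 1.90 (adjusted p = 7.02e-05), Lrp8, the ApoE receptor 2, by 1.72 (adjusted p = 0.000152) and Mylip, a ligase that degrades LDL receptors, by 1.01 (adjusted p = 0.00198). The other that rose was Lrpap1, a receptor chaperone, at 0.51 (adjusted p = 0.00959). Cd36, which takes up fatty acids and modified lipoproteins, fell by 4.10 on the log2 scale (adjusted p = 0.000463), Sorl1 by 2.28 (adjusted p = 0.00387) and Sort1, the sortilin gene, by 1.17 (adjusted p = 0.0421, kept in 2 of 6 fits with 1 array left out). Cd36, at 3.62, and Sorl1, at 3.74, lay below the median of all genes in Ad-nuclear CREBH dishes, and Mylip, at 4.06, in Ad-GFP dishes, so that the sizes of these changes can be understated. Lrp1, the remnant receptor that binds ApoE, was at 7.83 in Ad-nuclear CREBH dishes and 8.88 in Ad-GFP dishes (adjusted p = 0.0116), and Scarb1, the HDL receptor, at 8.87 in Ad-nuclear CREBH and 9.13 in Ad-GFP dishes (adjusted p = 0.205).

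Among 12 measured lipases and regulators of lipases 4 rose and 2 fell, with a median log2 fold change of 0.12, and 8 of the 12 lay above the median level. Lipg, the endothelial lipase that acts on HDL phospholipids, had the largest change of this list. It rose by 3.26 (SE 0.27, adjusted p = 5.71e-05), to a mean of 7.56 in Ad-nuclear CREBH dishes, against 4.31 in Ad-GFP dishes, which is below the median of all genes. Furin, a protease that cleaves endothelial and lipoprotein lipase, rose by 1.25 (adjusted p = 0.00169), and Sel1l, which lipoprotein lipase needs to leave the endoplasmic reticulum, by 0.81 (adjusted p = 0.00551). Pcsk5 and Angptl8, an inhibitor of lipoprotein lipase, fell by 0.93 (adjusted p = 0.013) and by 0.92 (adjusted p = 0.0139) on the log2 scale, but neither passed without Ad-nuclear CREBH replicate 2, and Pcsk5 but not Angptl8 did without Ad-nuclear CREBH replicate 3 or without Ad-GFP replicate 3. Pcsk5 lay below the median of all genes in both groups, at 3.82 in Ad-nuclear CREBH and 4.75 in Ad-GFP dishes. Lpl itself, the enzyme that ApoC-II activates, was at 4.62 in Ad-nuclear CREBH and 5.16 in Ad-GFP dishes, below the median of all genes (adjusted p = 0.0704).

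The list for the formation of HDL and the enzymes it carries also holds genes of other proteins, such as Hp, Hpx, Saa2, Saa4, Sphk1 and S1pr1. Of its 15 measured genes 7 rose and 4 fell, with a median log2 fold change of -0.17, and 13 of the 15 lay above the median level. Apoa1 is also counted among the other apolipoproteins, and Hpx among the hepatocyte markers. Abca1, the transporter that loads lipid onto nascent HDL, rose by 1.04 (adjusted p = 0.00101) and Pla2g12b by 0.76 (adjusted p = 0.00691). Sphk1, which makes the lipid that ApoM carries, rose by 1.61 (adjusted p = 0.017), a call kept in 2 of 6 fits with 1 array left out. Saa4 fell by 2.68 (adjusted p = 0.000712), Hp, the haptoglobin gene, by 1.16 (adjusted p = 0.0107) and Pon2, a paraoxonase gene, by 0.99 (adjusted p = 0.000531). Without Ad-GFP replicate 2 only 3 genes of this list rose, and 4 did without Ad-GFP replicate 3 or without Ad-nuclear CREBH replicate 2.

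Of 26 measured transcription factors known to act on apolipoprotein genes, 9 rose and 10 fell, with a median log2 fold change of -0.36. All but 2 of them lay above the median level, where 58.5% of all genes were called. Besides Creb3l3, for which binding of the viral transcript by the probes was not tested, the largest rises were those of Ppara, the fatty acid receptor, at 3.11 (adjusted p = 2.35e-05) and Foxa1 at 1.65 (adjusted p = 7.21e-05). The largest falls were those of Nr1h4, the bile acid receptor FXR, at -2.59 (adjusted p = 0.00019), Prox1 at -2.39 (adjusted p = 0.000139) and Nr5a2, the receptor LRH-1, at -1.40 (adjusted p = 0.00151). Hnf4a, a central activator of apolipoprotein genes in liver, was at 8.57 in Ad-nuclear CREBH dishes and 8.94 in Ad-GFP dishes (adjusted p = 0.129).

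**Figure D4:**
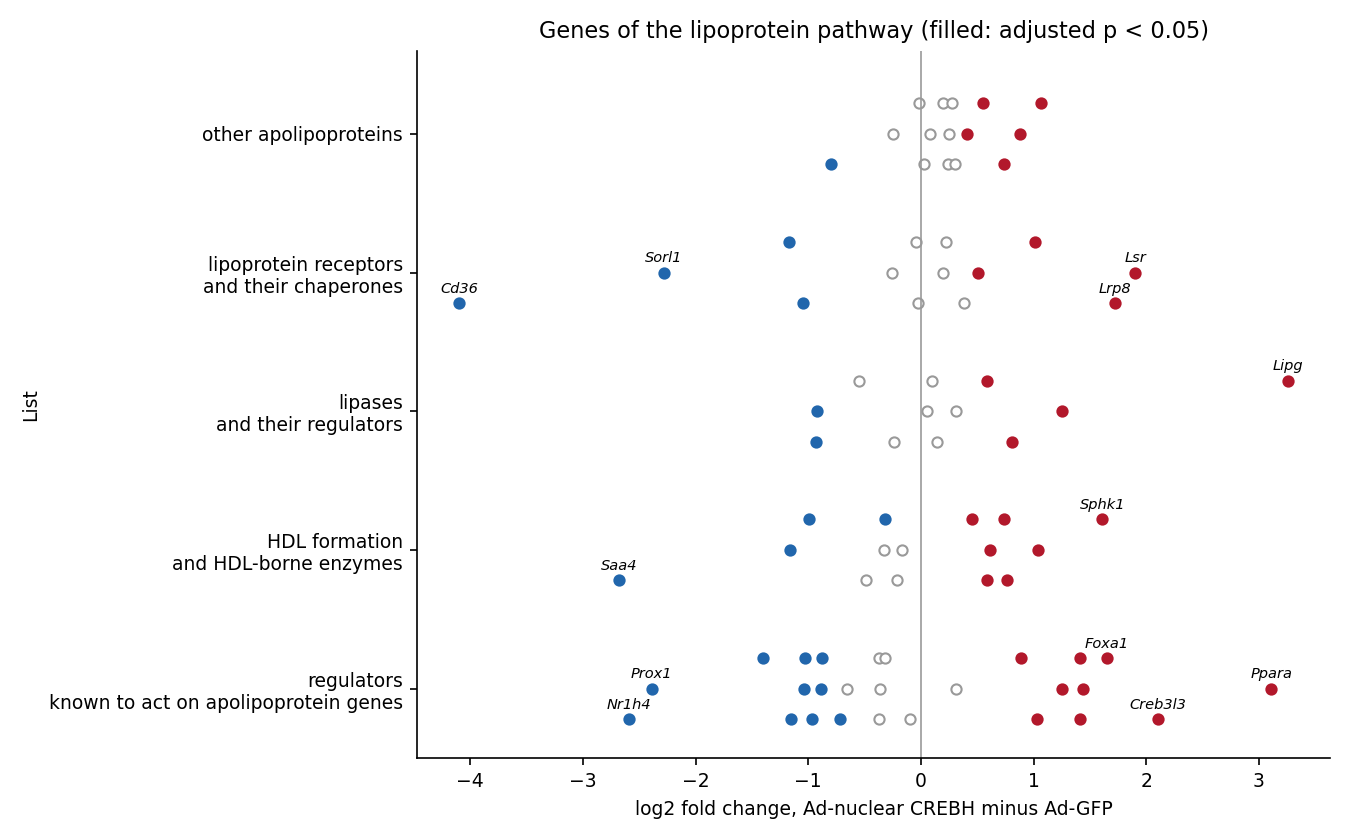
Log2 fold change, Ad-nuclear CREBH minus Ad-GFP (horizontal axis), of every measured gene on 5 lists of the lipoprotein pathway; filled points rose (red) or fell (blue) at an adjusted p under 0.05, open points did not pass, and genes past 1.5 on either side are named. Lipg at 3.26 and Ppara at 3.11 lie farthest to the right and Cd36 at -4.10 farthest to the left.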

How the data were processed

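RMA was run by the authors, and the log2 values they deposited for 6 Affymetrix Mouse Gene 1.1 ST arrays, in which genes are not centred, were used unchanged. The version of RMA and the array definition are not given in the sources used here, and no value is marked as background. Gene symbols came from the platform annotation. Of 35556 features, 21218 carried 1 symbol and were used, 1881 carried several and 12457 none, and for the 1386 genes with several features the one with the highest mean was kept. Groups were compared with limma 3.58.1 in R 4.3.3 (lmFit and eBayes with an intensity trend; residual degrees of freedom 4, prior degrees of freedom 3.97), which stands in for the intensity-based moderated statistic of the methods. Pairs of genes were compared by exact permutation in scipy 1.17.1. Figures were drawn with matplotlib 3.10.9.

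The 10 genes, the gene lists and the rule for named genes (of each list the 3 largest rises and 3 largest falls that passed, and a few fixed genes) were chosen with earlier results of these data known. Lrp1, Scarb1, Lrpap1, Clu, Lpl, Hnf4a, Clptm1, Nectin2, Bcl3 and the values of single markers were named after their values had been seen. Alternatives covered the normalization, a block for the replicate number, the variance prior, weights for arrays, a filter on level, the features per gene, the threshold and arrays left out. Cyclic loess and the loss of both arrays of replicate 1 were added for the gene pairs after seeing the data. Start windows came from RefSeq (GRCm38.p6). Precision is limited by there being 3 arrays a group.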

Additional observations from a re-analysis of the deposited data

How the results depend on the processing

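At an adjusted p under 0.05, 3615 genes rose and 3427 fell, against 4814 and 2852 after subtracting the median of each array, where the typical (median) log2 fold change was 0.18 in place of 0.04. By the criteria of the methods (unadjusted p under 0.001, fold over 2 or under 0.5, linear mean over 300 in a group) 927 rose and 595 fell, 13 and 3 of the pathway lists and 1 and 0 of the 9 genes, which was Apoc2. At an adjusted p under 0.01, 1 of the 9 rose and 1 fell, and 15 genes of the pathway lists fell. Of the 9 genes 1 rose after quantile normalization and without an intensity trend, and 1 rose and 5 fell under cyclic loess, where the log2 fold changes of Apoe and Apoa2 were -0.26 and -0.05. That of Apoe was -0.02 with array weights and -0.03 without both arrays of replicate 1, where 4 of the 9 fell. With 1 array left out, 1 to 2 of the 9 rose and 2 to 3 fell, 2877 to 3764 of all genes rose and 2637 to 4043 fell, and the log2 fold changes were -0.04 to 0.03 for Apoe and -0.01 to 0.36 for Apoa2. Of the 6 differences between cluster genes, that of Apoc1 minus Apoc4 turned to -0.14 under cyclic loess, a setting added for the pairs after seeing the data, and the others kept their sign in the settings run for them. The cause of these shifts was not tested.

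The labels give replicate numbers 1 to 3 in both groups, without saying whether these pair the dishes. Deviations of same-numbered arrays from their group means correlated at 0.178, 0.073 and 0.139 across genes, and those of differently numbered arrays at -0.173 to 0.12. Replicates 1 and 3 of Ad-nuclear CREBH correlated best with their own number, and replicate 2 with replicate 3 of Ad-GFP. The main fit did not use the numbers, and whether same-numbered dishes share an effect was not tested. With the replicate number as a block 3715 genes rose and 3705 fell, and of the 9 genes 2 rose and 4 fell, the added one being Apoh (adjusted p = 0.0145).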
